A study of Homo sapiens with 8 samples.

Results

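The genes described here release, rescue or recycle ribosomes at the end of translation. They are PELO, HBS1L, ABCE1, GTPBP1, GTPBP2, ETF1 and GSPT1, chosen by name with earlier results of these data known. They make up 7 of the 17547 genes tested in a genome-wide CRISPR interference growth screen. The table listed 70 sgRNAs for them at their first or only promoter (sets marked P1 or P1P2). Of these, 35 had counts, 5 per gene, and all 35 were kept. All 7 genes passed the filter on low counts.

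The screen used K562, an established human chronic myeloid leukaemia line, expressing dCas9-KRAB, a nuclease-dead Cas9 fused to a repressor domain that silences the promoter to which an sgRNA directs it. One cell population stably expressed wild-type uL16 and the other mutant uL16, a protein of the large ribosomal subunit (gene RPL10). The screen was set up to look for factors that act on faulty large subunits. Each line was sampled at day 0 and at day 9 with 2 replicates, which gave 4 groups of 2 libraries and 8 libraries in all. All 8 libraries share dCas9-KRAB, the sgRNA library and selection in puromycin at 1 µg/ml for 3 days. The design text gives the length of the growth period as 10 cell doublings. Which mutation the mutant line carries, the promoter of the uL16 transgene, whether a line is 1 clone, and the state of the cells' own RPL10 are not stated in the labels, and the table's column heads call the mutant delta. The labels also do not say that replicates came from separate cultures, so p-values measure only the spread between these libraries.

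Translation ends when the release factor eRF1, encoded by ETF1, recognises a stop codon in the ribosome and cuts the finished protein from its tRNA, after delivery by the GTPase eRF3, encoded by GSPT1. The ATPase ABCE1 then splits the ribosome into its subunits so that they can be used again. Ribosomes that stop without a stop codon, for example at the end of a broken mRNA, are taken by PELO, a relative of eRF1 that does not cut the protein off, together with the eRF3-like GTPase HBS1L, and ABCE1 splits these ribosomes too. GTPBP1 and GTPBP2 are further GTPases of the same family, and GTPBP2 has been linked to stalled ribosomes in mouse neurons.

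Abundance of an sgRNA in genomic DNA stands for the share of cells that carry it, so a fall between day 0 and day 9 means that cells with this sgRNA became a smaller share of the culture. Total counts per library ran from 39233340 to 143585751. The 35 sgRNAs of the 7 genes had a median count of 114 to 1011 per library. A count of 0 occurred 2 times, both in mutant day 9 replicate 1, where it allows an abundance of up to 0.0765 counts per 1000000 (CPM). The reads carry no molecular identifiers, so such limits cover counting error only. As a check of the cell line, 4 of 5 tested K562 dependencies were called lower in both lines. Of all genes, 9.28% (wild-type) and 9.07% (mutant) were called lower. TAL1 and ABL1 were also planned for this check but had no gene value. GATA1, an erythroid transcription factor, had log2 changes of -3.09 (wild-type) and -2.65 (mutant), BCR of -1.89 and -2.21, and GFI1B of -1.58 and -1.23. LMO2 had changes of -0.63 and -1.10. LDB1 had values of 0.32 and 0.01 and did not pass the test.

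Members of the group stood beside a neighbouring gene at 2 promoters, and these promoters are shown because an sgRNA there is listed under both genes. ABCE1 and ANAPC10, a subunit of the anaphase-promoting complex, are transcribed away from each other, and RefSeq (GRCh38.p14) places the ABCE1 start 92 bp from the nearest of 4 ANAPC10 starts. The sequence below covers chr4:145098213-145098310 on the plus strand, the 98 bases before the ABCE1 start, with capitals on a cyclic AMP response element (CRE, TGACGTCA). PELO has the same RefSeq start as ITGA1, the gene of an integrin subunit in which PELO lies. The 250 bases before that start, chr5:52787666-52787915 on the plus strand, hold none of the motifs searched. For PELO, only this window was searched. The PELO gene values below come from its P1 sgRNAs. By median position these lie 11.9 kb from its second set (P2), whose sgRNAs are also listed under ITGA1.
ABCE1/ANAPC10: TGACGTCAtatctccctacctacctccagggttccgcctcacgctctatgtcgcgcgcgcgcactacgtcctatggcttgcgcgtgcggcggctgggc
PELO/ITGA1: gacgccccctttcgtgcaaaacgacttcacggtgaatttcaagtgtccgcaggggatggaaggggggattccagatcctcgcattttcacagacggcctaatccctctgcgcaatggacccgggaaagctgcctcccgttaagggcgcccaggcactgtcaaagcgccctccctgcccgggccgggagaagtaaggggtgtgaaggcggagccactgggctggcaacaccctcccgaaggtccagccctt

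Motifs were searched on both strands in the 250 bases before each RefSeq start. The letters were TGACGTCA for CRE, CCGGAAG or its reverse complement CTTCCGG for ETS factors, and AAGATGGCG or its reverse complement CGCCATCTT for YY1. None of these strings contains another. Among 34943 windows of the same length, 1.63% held CRE, 8.48% ETS and 0.652% YY1. CRE was found 98 bases before the ABCE1 start, and ETS 206 bases before a start of ETF1 and 244 bases before a start of GSPT1. The windows of PELO, HBS1L, GTPBP1 and GTPBP2 held none of these 3 motifs, the PELO window being the one at the start shared with ITGA1. These matches describe the letters only.

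In the wild-type line, cells with sgRNAs against ABCE1, PELO, HBS1L and GSPT1 became rarer by day 9, and cells with sgRNAs against GTPBP2 became more common. Of the 7 genes, 4 were called lower, where 9.28% of all genes tested were, and 1 was called higher, where 0.986% of all genes were (edgeR's quasi-likelihood test, Benjamini-Hochberg adjusted p under 0.05 over 17547 genes). The mutant line had 3 genes called lower (ABCE1, PELO and HBS1L), against 9.07% of all genes. None was called higher there by edgeR, DESeq2 or limma, against 0.798% of all genes by edgeR. Gene values below are summed counts of the gene's 5 sgRNAs as CPM scaled by the trimmed mean of M values (TMM), and changes are log2 of day 9 over day 0.

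**Figure D1:**
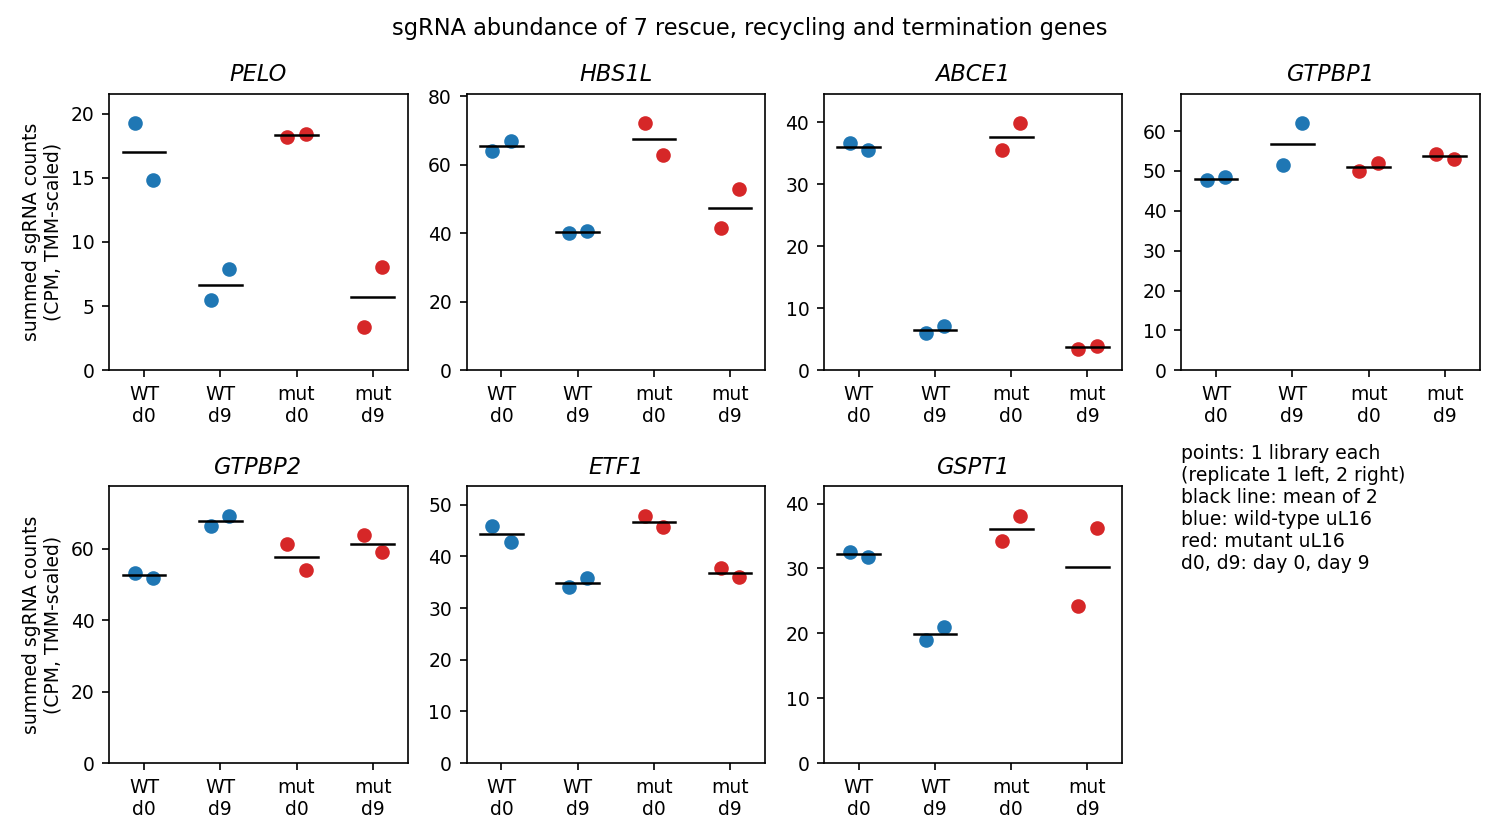
Summed sgRNA abundance (CPM, linear axis from 0) of each gene in each of the 8 libraries, with 1 point per library and a black line at the mean of the 2. ABCE1 fell from between 35.4 and 39.8 CPM at day 0 to between 3.41 and 7.10 at day 9, while GTPBP1 and GTPBP2 stayed at 47.7 CPM or more in every library.

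ABCE1, the ATPase that splits ribosomes, had the lowest summed change of the 7 genes in both lines. It measured 36.6 and 35.5 CPM in the wild-type day 0 libraries and 5.96 and 7.10 CPM at day 9. Mutant libraries held 35.4 and 39.8 CPM at day 0 and 3.41 and 3.94 CPM at day 9. Every day 9 library lay below every day 0 library, and both mutant day 9 libraries lay below both wild-type ones. The fitted change was -2.46 in the wild-type line (SE 0.19, edgeR adjusted p = 2.45e-12), a 5.52-fold fall that ranked 97 from the lowest of 17547 genes. The mutant change was -3.34 (SE 0.20, edgeR adjusted p = 4.37e-15), a 10.1-fold fall that ranked 36.

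All 5 ABCE1 sgRNAs had negative changes in both lines, from -3.77 to -2.26 in the wild-type line and from -5.15 to -2.61 in the mutant line. At the level of single sgRNAs, 4 of the 5 were called lower in the wild-type line and 5 of 5 in the mutant line. The backgrounds for single sgRNAs were 5.12% called lower in the wild-type line and 5% in the mutant line, out of 104881 sgRNAs tested. The exception in the wild-type line was sgRNA 3 in position order, which had a change of -2.50 (edgeR adjusted p = 0.147) and lay at the 1.84 percentile of day 0 abundance. Few reads stand behind the lowest values here: sgRNA 4, with changes of -3.77 and -5.15, had 9 and 6 counts in the wild-type day 9 libraries and 2 and 5 in the mutant ones.

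The first ABCE1 sgRNA is also listed under ANAPC10, so the 9 sgRNAs of both genes were read in order along the chromosome. The outermost ANAPC10 sgRNA set the zero point of position. At 0 and 134 bp, the ANAPC10 sgRNAs had wild-type changes of 0.37 and -0.41 and mutant changes of -0.04 and 0.11, and none was called. At 354 bp an sgRNA listed only under ANAPC10 had changes of -3.26 in the wild-type line (edgeR adjusted p = 0.000388) and -4.99 in the mutant line (edgeR adjusted p = 4.26e-06). The shared sgRNA 3 bp further on had changes of -2.61 and -3.76 and was called in both lines. The next ANAPC10 sgRNA, at 392 bp on the opposite strand, had changes of -0.11 and -0.39 and was not called. From 503 bp on, the 4 sgRNAs listed only under ABCE1 lay between -3.77 and -2.26 in the wild-type line and between -5.15 and -2.61 in the mutant line.

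Strong falls therefore covered the whole ABCE1 set and 2 of the 5 ANAPC10 sgRNAs, the 2 that lie within 3 bp of each other and nearest to the ABCE1 set on their strand. Summed over its 5 sgRNAs, ANAPC10 fell, with changes of -0.46 in the wild-type line (SE 0.13, edgeR adjusted p = 0.0183) and -0.73 in the mutant line (SE 0.13, edgeR adjusted p = 7.09e-05). Which of the 2 genes these sgRNAs silenced was not tested.

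**Figure D2:**
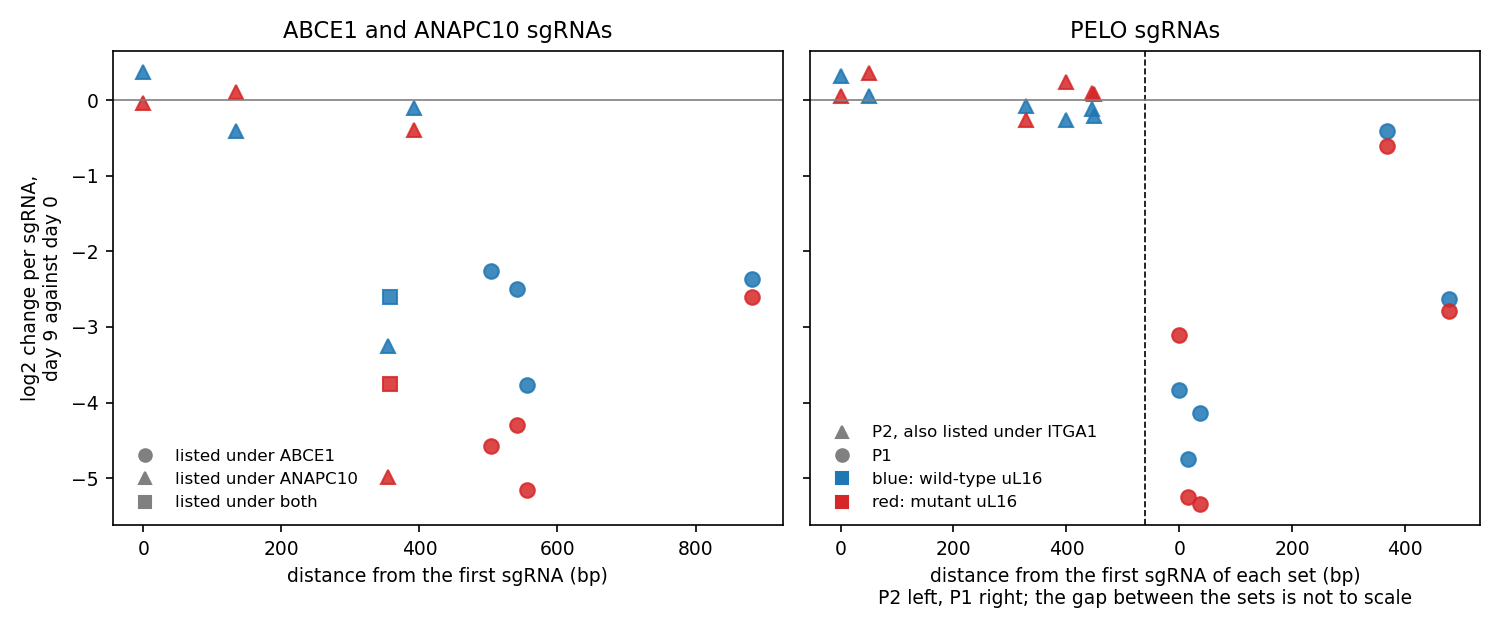
Log2 change of single sgRNAs (day 9 against day 0) against distance in bp, at the ABCE1 and ANAPC10 promoters (left panel) and for the P2 and P1 sets of PELO (right panel, gap between sets not to scale). In the left panel the falls begin at 354 bp and continue through the ABCE1 set except at 392 bp; in the right panel the 6 P2 sgRNAs lie near 0 and 4 of 5 P1 sgRNAs lie at -2.63 or lower in both lines.

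PELO, the factor that recognises stalled ribosomes, fell in both lines. It measured 19.3 and 14.8 CPM in the wild-type day 0 libraries and 5.47 and 7.86 CPM at day 9. Values in the mutant line were 18.2 and 18.4 CPM at day 0 and 3.38 and 8.07 CPM at day 9. The day 9 libraries all lay below the day 0 libraries, and the mutant day 9 libraries lay on either side of both wild-type ones. The fitted change was -1.35 in the wild-type line (SE 0.31, edgeR adjusted p = 0.00189, rank 362 from the lowest) and -1.62 in the mutant line (SE 0.31, edgeR adjusted p = 0.000156, rank 268). Without wild-type day 0 replicate 1 the wild-type change was -1.15 and no longer called (edgeR adjusted p = 0.102). Without mutant day 9 replicate 2 the mutant change was -2.43, and without replicate 1 it was -1.18, called in both cases.

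One sgRNA decided the size of the summed PELO value. sgRNA 4 in position order, 368 bp from the first, had changes of -0.40 and -0.60 that were not called, and it lay at the 30.7 percentile of day 0 abundance. The other 4 sgRNAs lay at the 3.00 to 6.10 percentiles, and all 4 were called lower in both lines, with changes from -4.75 to -2.63 in the wild-type line and from -5.34 to -2.79 in the mutant line. The summed PELO change without sgRNA 4 was -3.52 in the wild-type line and -3.47 in the mutant line. The median over the 5 sgRNAs was -3.83 and -3.11. Limma on the mean over sgRNAs gave -2.92 in the wild-type line, below its value of -2.62 for ABCE1, and -3.47 in the mutant line, above its value of -3.86 for ABCE1.

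The raw counts show how far the single PELO sgRNAs fell. sgRNA 2 had 175 and 66 counts in the wild-type day 0 libraries and 2 and 4 at day 9, and in the mutant line 160 and 272 counts at day 0 and 0 and 8 at day 9. sgRNA 3 had 150 and 106 counts, then 5 and 5, in the wild-type line, and 113 and 255, then 0 and 6, in the mutant line. Each day 9 count was 8 or lower, so the fitted changes of these sgRNAs rest on few reads. Across the screen, large falls were more frequent at low starting abundance. Among 10283 sgRNAs under the 10th percentile of day 0 CPM, 9.44% dropped more than 2 log2 units in the wild-type line, against 2.35% of the other 92704. Rises of more than 2 log2 units were not counted, so a wider scatter in both directions cannot be told apart. The part of low abundance in the PELO values was not tested.

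The second PELO set, P2, showed no such fall. All 6 of its sgRNAs with counts are also listed under ITGA1. Their changes lay between -0.26 and 0.32 in the wild-type line and between -0.26 and 0.36 in the mutant line. The edgeR test on single sgRNAs called 0 of 6 in either line, and 0 of 6 (wild-type) and 1 of 6 (mutant) had an unadjusted p under 0.05. The share of all sgRNAs with such a p was not counted. Summed, the 6 P2 sgRNAs had changes of -0.14 (SE 0.07, edgeR adjusted p = 0.544) and 0.04 (SE 0.07, edgeR adjusted p = 0.925). The fit covered 1395 genes with a second promoter, of which 1.22% (wild-type) and 0.789% (mutant) were called lower. By the positions in the sgRNA names, the medians of the P1 and P2 sets lie 11.9 kb apart. In RefSeq, a start of the antisense RNA PELO-AS1 lies 12.1 kb inside the gene from the start that PELO shares with ITGA1. Pooling both PELO sets gave -0.21 in the wild-type line and -0.06 in the mutant line, where the call was lost (edgeR adjusted p = 0.724).

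HBS1L, the GTPase partner of PELO, fell in both lines. It measured 64.1 and 66.9 CPM in the wild-type day 0 libraries and 40.1 and 40.6 CPM at day 9. Mutant libraries held 72.2 and 63.0 CPM at day 0 and 41.7 and 52.9 CPM at day 9. All day 9 libraries lay below all day 0 libraries, and mutant day 9 replicate 2 was the highest of the 4 at day 9. The fitted change was -0.70 in the wild-type line (SE 0.11, edgeR adjusted p = 1.27e-05) and -0.51 in the mutant line (SE 0.11, edgeR adjusted p = 0.00109).

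Among the 5 HBS1L sgRNAs, sgRNA 2 in position order had the lowest change in both lines, -3.10 in the wild-type line (edgeR adjusted p = 6.35e-07) and -2.76 in the mutant line (edgeR adjusted p = 1.86e-06). The other 4 lay between -0.79 and -0.15 in the wild-type line, where none was called, and between -0.86 and 0.06 in the mutant line, where sgRNA 1 was called (edgeR adjusted p = 0.0368). Without sgRNA 2 the summed wild-type change was -0.51 and still called, and the mutant change was -0.34 and not called (edgeR adjusted p = 0.0596). The mutant call was also lost without mutant day 0 replicate 1 (edgeR adjusted p = 0.0848) and without mutant day 9 replicate 1 (-0.35, edgeR adjusted p = 0.0698).

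GTPBP2 moved the other way in the wild-type line. It measured 53.2 and 51.8 CPM in the wild-type day 0 libraries and 66.4 and 69.1 CPM at day 9. Values in the mutant line were 61.3 and 54.1 CPM at day 0 and 63.6 and 59.1 CPM at day 9. The wild-type groups did not overlap, while the mutant groups did. The fitted change was 0.37 in the wild-type line (SE 0.10, edgeR adjusted p = 0.0119), a 1.29-fold rise that ranked 83 from the highest, and 0.09 in the mutant line (SE 0.10, edgeR adjusted p = 0.745).

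The GTPBP2 call rested on its sgRNA 3, which rose by 0.88 in the wild-type line (edgeR adjusted p = 0.00356, against 0.267% of all sgRNAs called higher) and had a value of 0.12 in the mutant line. sgRNA 4, 3 bp away on the same strand, had values of 0.03 and 0.26. Without sgRNA 3 the summed wild-type change was 0.19 (edgeR adjusted p = 0.376). The call was also lost under limma (0.32, adjusted p = 0.0922) and without wild-type day 0 replicate 1 (edgeR adjusted p = 0.0784), wild-type day 0 replicate 2 (edgeR adjusted p = 0.129) or wild-type day 9 replicate 2 (edgeR adjusted p = 0.0575).

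GTPBP1, its paralog, did not pass the test in either line. It measured 47.7 and 48.4 CPM in the wild-type day 0 libraries and 51.4 and 62.0 CPM at day 9. Mutant libraries held 50.0 and 52.1 CPM at day 0 and 54.4 and 53.0 CPM at day 9. Each day 9 library lay above both day 0 libraries of its line, and wild-type day 9 replicate 2 was the highest of the 8. The changes were 0.24 (SE 0.11, edgeR adjusted p = 0.196) and 0.07 (SE 0.11, edgeR adjusted p = 0.821). Its 5 sgRNAs lay between -0.09 and 0.40 in the wild-type line and between -0.20 and 0.35 in the mutant line, and none was called. Without wild-type day 9 replicate 1 the wild-type change was 0.37 and called (edgeR adjusted p = 0.0337).

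GSPT1, the gene of the release factor GTPase eRF3, was called lower in the wild-type line and did not pass the test in the mutant line. It measured 32.6 and 31.8 CPM in the wild-type day 0 libraries and 18.9 and 21.0 CPM at day 9. Values in the mutant line were 34.2 and 38.1 CPM at day 0 and 24.2 and 36.2 CPM at day 9. The wild-type groups were well apart, while mutant day 9 replicate 2 lay between the 2 mutant day 0 libraries. The fitted change was -0.69 in the wild-type line (SE 0.16, edgeR adjusted p = 0.00209) and -0.25 in the mutant line (SE 0.16, edgeR adjusted p = 0.444). The 2 mutant day 9 libraries gave separate changes of -0.58 and 0.00, and without replicate 2 the mutant change was -0.58 and called (edgeR adjusted p = 0.0281).

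That gap between the mutant day 9 replicates was also present for PELO (-2.43 and -1.18) and HBS1L (-0.69 and -0.35). It was small for ABCE1 (-3.45 and -3.24). Replicate 2 was instead the lower for ETF1 (-0.31 and -0.38), GTPBP1 (0.09 and 0.06) and GTPBP2 (0.14 and 0.04). Over the 1629 genes called lower in the wild-type line, the same 2 libraries had close medians, -0.73 and -0.74. Their total counts were 39233340 and 102693061, and the part of depth in the gap was not tested. Of the 5 GSPT1 sgRNAs, sgRNA 2 (-2.48) and sgRNA 5 (-1.54) were called lower in the wild-type line, and 4 of 5 were below 0 there. Without sgRNA 1 (0.02) the summed wild-type change was -1.26, and the median over the 5 was -1.33. The mutant values of the 5 lay between -0.82 and 0.09 and none was called, and each of the 5 was higher than in the wild-type line.

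ETF1, the gene of the release factor itself, had a change just outside the threshold in both lines. It measured 45.9 and 42.8 CPM in the wild-type day 0 libraries and 34.0 and 35.8 CPM at day 9. Mutant libraries held 47.8 and 45.6 CPM at day 0 and 37.7 and 36.0 CPM at day 9. No day 9 library reached any day 0 library. The changes were -0.35 (SE 0.12, edgeR adjusted p = 0.0580) and -0.34 (SE 0.12, edgeR adjusted p = 0.0598). DESeq2 called both (adjusted p = 0.00400 and 0.00364), as did edgeR with scaling to control sgRNAs (adjusted p = 0.0274 and 0.0291). Over all genes, the main fit called 1629 (wild-type) and 1591 (mutant) lower. DESeq2 called 2017 and 1919 lower, scaling to controls 1850 and 1774, and limma 1970 and 1861. For ETF1, limma called the wild-type change (-0.68, adjusted p = 0.00792) and did not call the mutant one (-0.38, adjusted p = 0.151). The wild-type change was also called without mutant day 9 replicate 1 or 2 (edgeR adjusted p = 0.0418 and 0.0416), and the mutant change without wild-type day 9 replicate 1 or 2 (edgeR adjusted p = 0.0303 and 0.0309).

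The ETF1 sgRNAs split sharply. sgRNAs 2 and 3, 111 bp apart, had changes of -1.82 and -1.78 in the wild-type line (edgeR adjusted p = 0.000324 and 0.000436), while sgRNAs 1, 4 and 5 lay between 0.03 and 0.13. In the mutant line sgRNA 3 had a change of -1.58 (edgeR adjusted p = 0.00128), sgRNA 2 had a value of -0.47 (edgeR adjusted p = 0.688), and the others lay between -0.08 and 0.20. sgRNA 1 lay at the 93.0 percentile of day 0 abundance. Without it the summed change was -1.01 in the wild-type line (edgeR adjusted p = 0.000384) and -0.65 in the mutant line (edgeR adjusted p = 0.0309), and both were called. Without sgRNA 2 the wild-type change was -0.13 (edgeR adjusted p = 0.638). Without sgRNA 3 the changes were -0.17 (edgeR adjusted p = 0.519) and -0.14 (edgeR adjusted p = 0.663).

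**Figure D3:**
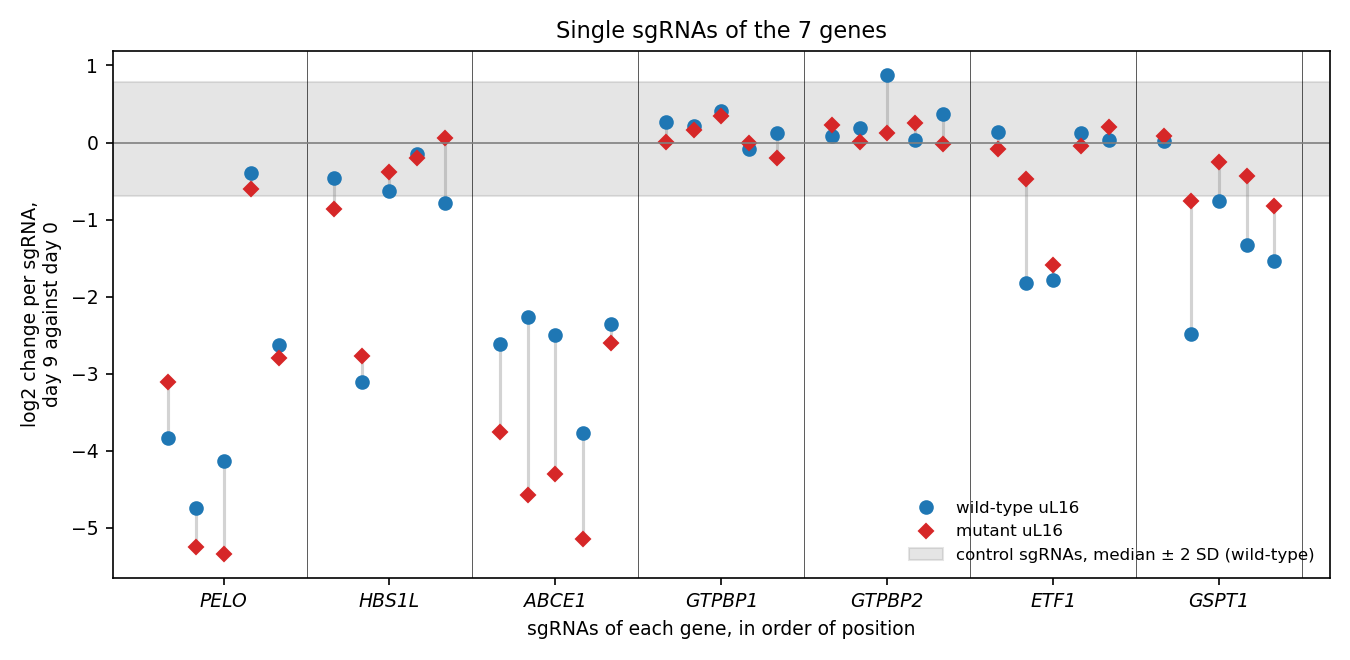
Log2 change (day 9 against day 0) of each of the 35 sgRNAs in position order within its gene, in the wild-type line (circles) and the mutant line (diamonds), with the grey band at the median ± 2 SD of 1894 control sgRNAs. All ABCE1 sgRNAs and 4 of 5 PELO sgRNAs lie far below the band, whereas HBS1L, ETF1 and GSPT1 have sgRNAs both inside and below it in the wild-type line.

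Over the 35 sgRNAs, 13 were called lower and 1 higher in the wild-type line, against 5.12% and 0.267% of all sgRNAs. In the mutant line 12 were called lower and 0 higher, against 5% and 0.165% of all sgRNAs. No other of the 35 had an unadjusted edgeR p under 0.05 in the mutant line. In the wild-type line 20 of 35 had one, where 14 were called. The share of all sgRNAs with such a p was not counted. The 1894 control sgRNAs had a median change of 0.05 (SD 0.37) in the wild-type line and 0.04 (SD 0.35) in the mutant line. Those called lower in the wild-type line were 4 of 5 for ABCE1, 4 of 5 for PELO, 2 of 5 for ETF1, 2 of 5 for GSPT1 and 1 of 5 for HBS1L. How far each sgRNA reduced its target's expression was not measured in these libraries.

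The order of the 7 summed wild-type changes was ABCE1, PELO, HBS1L, GSPT1, ETF1, GTPBP1 and GTPBP2, from lowest to highest. This order depends on the summing: PELO lay below ABCE1 and GSPT1 below HBS1L with limma (-2.92 against -2.62, and -1.26 against -1.01) and without the most abundant sgRNA of every gene (-3.51 against -2.53, and -1.25 against -0.71). For the sums, the 95% interval of ABCE1 (-2.85 to -2.08) lay below that of PELO (-1.99 to -0.72). The intervals of PELO, HBS1L (-0.93 to -0.47) and GSPT1 (-1.01 to -0.36) overlapped, those of HBS1L, GSPT1 and ETF1 (-0.59 to -0.11) overlapped, as did those of GTPBP1 (0.02 to 0.46) and GTPBP2 (0.16 to 0.57). In the mutant line ABCE1 (-3.74 to -2.94) again lay below PELO (-2.25 to -0.997), and PELO lay below HBS1L (-0.73 to -0.28). The intervals of HBS1L, ETF1 and GSPT1 overlapped there.

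**Figure D4:**
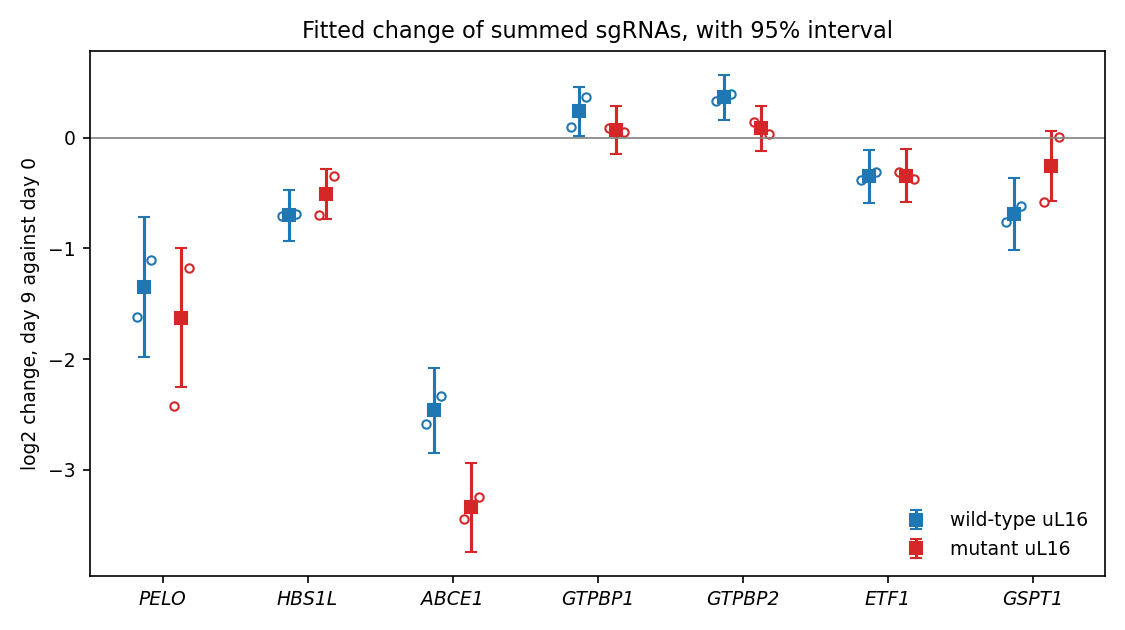
Fitted log2 change of each gene (filled squares) with its 95% interval, and the change of each day 9 library against its line's mean day 0 level (open circles), for wild-type and mutant uL16. ABCE1 is lowest in both lines, the open circles of PELO and GSPT1 are far apart in the mutant line, and among the squares only those of GTPBP1 and GTPBP2 lie above 0.

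The comparison between the lines asks whether silencing a gene cost more or less growth with mutant than with wild-type uL16. None of the 7 genes passed the edgeR test of the difference between the 2 changes (mutant minus wild-type), where 0.0171% of all genes were called, 3 in number. DESeq2 and limma also called 0 of 7, and 1 of 7 by edgeR and 2 of 7 by each other tool had an unadjusted p under 0.05, against 5.68% of all genes by edgeR. ABCE1 had the largest difference, -0.88 (95% interval -1.41 to -0.34, edgeR adjusted p = 0.693). Both mutant libraries showed a larger fall than both wild-type libraries, with changes of -3.45 and -3.24 against -2.59 and -2.34. All 5 of its sgRNAs were lower in the mutant line, and sgRNA 2 differed most, by -2.31 (edgeR adjusted p = 0.755). Leaving out 1 ABCE1 sgRNA at a time moved the difference between -1.73, without sgRNA 5, and -0.56, without sgRNA 2.

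GSPT1 had a difference of 0.44 (95% interval -0.02 to 0.89, edgeR adjusted p = 0.881), with the mutant change nearer to 0. GTPBP2 had a difference of -0.28 (95% interval -0.57 to 0.01, edgeR adjusted p = 0.881), so a difference in its behaviour between the lines was not shown. For PELO the difference was -0.27 with a wide interval (-1.15 to 0.61), for HBS1L 0.19 (-0.13 to 0.51), for GTPBP1 -0.17 (-0.48 to 0.15) and for ETF1 0.00 (-0.33 to 0.34). The sign of the PELO difference turned without its sgRNA 4 (0.0553). At the level of single sgRNAs the edgeR test called 0 of 35, against 0% of all 104881. An unadjusted edgeR p under 0.05 was found for 5 of 35, and this share was not counted over all sgRNAs.

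Levels were also compared directly between the lines at each day. At day 0 the edgeR test called 0 of 7, against 0% of all genes, and none of the 7 had an unadjusted p under 0.05. At day 9 it called 0 of 7, against 0.239% of all genes, and 3 of 7 had an unadjusted p under 0.05, against 12.1% of all genes. These were ABCE1, lower in the mutant line by a log2 difference of -0.82 (edgeR adjusted p = 0.0689), GSPT1, higher by 0.61 (edgeR adjusted p = 0.0974), and HBS1L, higher by 0.24 (edgeR adjusted p = 0.401).

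Genes whose 4 day 9 changes lay closest to those of a member were named by the smallest Euclidean distance over the 4 day 9 libraries, among all genes tested, for the 5 members called in at least 1 line. For ABCE1 they were HEATR1 at 0.419, CWC15 at 0.522 and SNRPE at 0.571, in log2 units. For PELO, UQCRC1 lay at 0.660 and OXA1L at 0.674. These PELO distances use its summed value, the size of which depended on its sgRNA 4. For HBS1L they were CHORDC1 at 0.131, ANAPC2 at 0.134 and GPI at 0.155. For GTPBP2 they were ASZ1 at 0.0539, GLCCI1 at 0.0637 and PFKFB3 at 0.0640, and for GSPT1 SLC30A9 at 0.161, C14orf80 at 0.245 and FNBP4 at 0.255. Genes with small changes lie close to many others, so distances are comparable only within 1 member.

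Other genes of the pathway were grouped in 8 lists. Medians below are log2 changes and stand beside a median of 0.01 over all 17547 genes in each line. Counts of genes called lower stand beside 9.28% of all genes in the wild-type line and 9.07% in the mutant line, and 20.3% and 18.1% of all genes had an unadjusted edgeR p under 0.05. Among 4 termination modifiers and paralogs, 2 were called lower in both lines: N6AMT1 (-0.93 and -0.68) and TRMT112 (-0.75 and -0.50), which together form the methyltransferase that modifies eRF1. GSPT2, the paralog of GSPT1, had values of -0.01 and -0.07. The list's medians were -0.38 (wild-type) and -0.29 (mutant).

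Another list held factors that build and deliver iron-sulfur clusters, which ABCE1 needs. Its gene NUBP1 had the lowest value of all 8 lists in each line. Of 10 measured, 5 were called lower in the wild-type line and 6 in the mutant line, with medians of -0.46 and -0.49. NUBP1, a scaffold protein of cluster assembly, fell (-1.73 and -1.67). YAE1D1 and ORAOV1, which form the adaptor that brings clusters to ABCE1, fell (-1.58 and -1.5 for the first, -1.31 and -1.06 for the other). NARFL, also of cluster delivery, fell (-1.21 and -1.62). Not called in either line were CIAO1 (0.09 and 0.19), NUBP2 (0.07 and -0.17), FAM96B (-0.11 and 0.01) and NDOR1 (-0.36 and -0.31). ICT1, of the mitochondrial list below, had values close to those of YAE1D1 (-1.57 and -1.52). A link of the iron-sulfur falls to ABCE1 was not tested.

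Of 4 factors that clear tRNA and mRNA from the small subunit after splitting, 3 were called lower in the wild-type line and 2 in the mutant line, with medians of -0.44 and -0.60. MCTS1 fell (-0.51 and -0.76), and its partner DENR also fell (-0.38 and -0.52). EIF3J fell (-1.01) in the wild-type line and had a value of -0.68 in the mutant line (edgeR adjusted p = 0.0753). The SKI complex and FOCAD, which feed mRNA to the exosome, gave 0 calls among 4 genes in either line by edgeR, DESeq2 or limma, and 1 of 4 had an unadjusted edgeR p under 0.05 in each line. Their medians were -0.08 and 0.05.

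Among 26 genes of collision sensing and quality control on the large subunit, 7 were called lower in the wild-type line and 5 in the mutant line, with medians of -0.06 and -0.05. GCN1L1, a collision sensor, fell (-1.06 and -1.21), and GNB2L1, the ribosomal protein RACK1, also fell (-1.24 and -0.71). LTN1, the ubiquitin ligase of stalled large subunits, fell (-0.75 and -1.25), and NEMF, its partner, also fell (-0.60 and -1.44). The NEMF difference between lines was -0.84 (SE 0.21, edgeR adjusted p = 0.396). ZNF598, a ligase that marks collided ribosomes, had values of -0.08 and -0.11.

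The 10 other translational GTPases and ABCF ATPases had 3 called lower in the wild-type line and 4 in the mutant line, with medians of -0.24 and -0.23. EFTUD1, the GTPase that helps mature large subunits, fell (-0.94 and -1.16), EEFSEC, the selenocysteine elongation factor, also fell (-0.72 and -0.69), as did ABCF1 (-0.50 and -0.56). Of 12 genes of nonsense-mediated decay, 2 were called lower in the wild-type line, NBAS (-0.40, edgeR adjusted p = 0.0228) and UPF2 (-0.36, edgeR adjusted p = 0.0462). In the mutant line 0 were called lower and 1 higher, SMG1 (0.25, edgeR adjusted p = 0.0337). Limma called 0 of the 12 in either line, while DESeq2 called 3 (wild-type) and 1 (mutant). The 8 mitochondrial counterparts included 2 called lower in both lines, ICT1 (-1.57 and -1.52), a peptidyl-tRNA hydrolase built into the mitochondrial ribosome, and MTRF1L (-0.68 and -0.47), a mitochondrial release factor. In the test of the difference between lines, 0 genes of the 8 lists were called by edgeR, DESeq2 or limma. An unadjusted edgeR p under 0.05 was found there for 4 of the 26 collision and quality control genes, 1 iron-sulfur gene and 1 gene of the SKI list, against 5.68% of all genes.

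**Figure D5:**
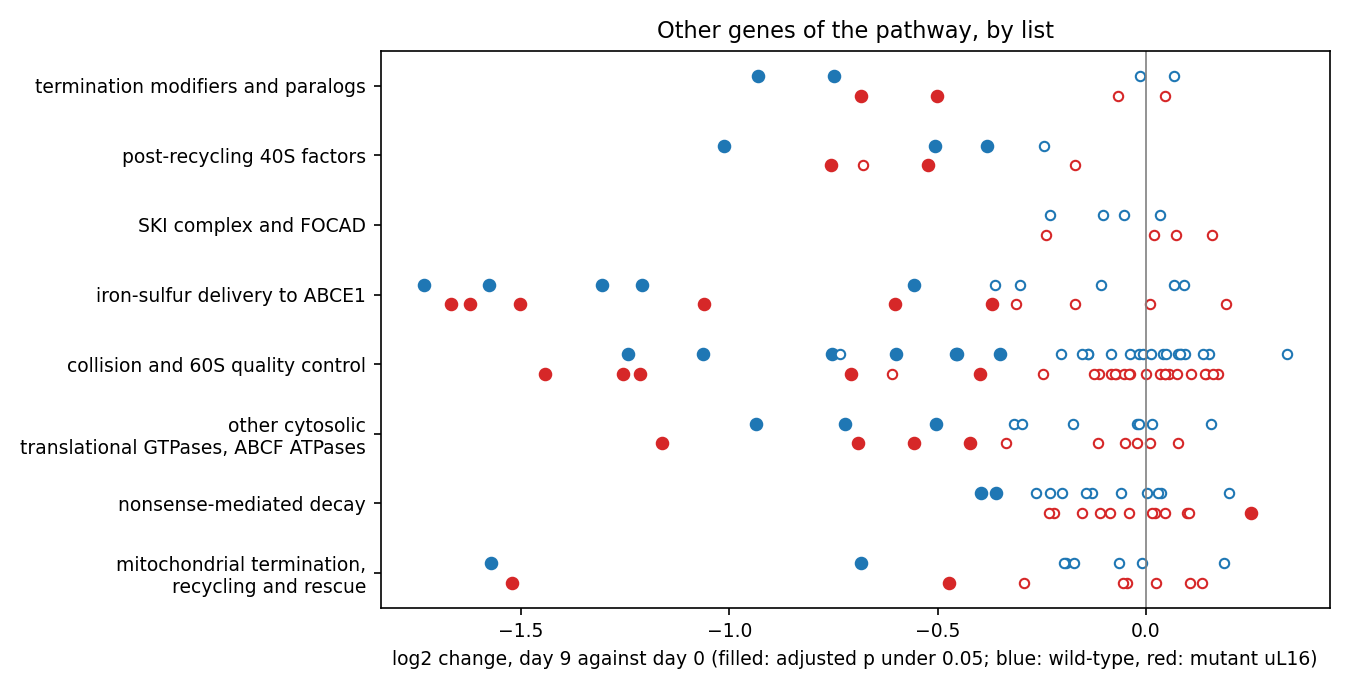
Log2 change (day 9 against day 0) of every measured gene in the 8 lists, with wild-type points above mutant points in each line of the plot and filled points for adjusted p under 0.05. Iron-sulfur delivery holds the lowest value for either uL16 line, -1.73 (wild-type) and -1.67 (mutant), and the SKI list holds no filled point.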

How the data were processed

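The deposited table holds raw counts per sgRNA for 8 libraries; per the file headers its values are whole-read counts of trimmed reads, and the submitters' processing notes name hg38. Neither names an aligner or counter. Positions written in the sgRNA names lay within 5 kb of none of the 7 genes in GRCh38, so only distances between them were used. The table listed 209070 sgRNAs, of which 103686 had no count in any library.

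sgRNAs with a mean count of at least 20 were kept (102987 targeting, 1894 control), and counts of P1 or P1P2 sgRNAs were summed per gene for genes with at least 3. Changes were tested with edgeR 4.0.16 (glmQLFit and glmQLFTest, TMM, 1 mean per group over all 8 libraries), with Benjamini-Hochberg adjustment over all genes or sgRNAs and a threshold of 0.05. DESeq2 1.42.0 and limma 3.58.1 (mean log2 CPM per sgRNA, prior count 2) were alternatives, with other scalings, filters, sgRNA sets and left-out libraries. Fits were tested on simulated data. SEs were derived from the F statistic. Groups and replicate numbers came from the labels. By a fixed rule, the 7 genes, their neighbours by sgRNA position and close genes by distance were named. Up to 3 list genes with the smallest wild-type p and 2 with the smallest mutant p were added from those called in any contrast. K562 dependencies were named outside this rule. GSPT2, ZNF598, ORAOV1, CIAO1, NUBP2, FAM96B and NDOR1 were also named outside it, after their values were seen. A search for an NRF1 motif, which matched before the HBS1L start, was dropped after its result was seen and is not reported. One close gene is not reported here. The members and lists were chosen with earlier results of these data known.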

Additional observations from a re-analysis of the deposited data

How the results depend on the processing

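The counts of called members were 5 (wild-type), 3 (mutant) and 0 (difference). Leaving out each library in turn gave 3 to 6, 2 to 4 and 0 to 0; the 3 came without wild-type day 0 replicate 1 and were ABCE1, GSPT1 and HBS1L. With the replicate number as a block the counts were again 5, 3 and 0. Between groups, the deviations of replicate 1 from replicate 2 had correlations across genes between -0.0081 and 0.0442. The 2 highest joined day 0 and day 9 of the same line, 0.0442 (mutant) and 0.0165 (wild-type). Values this small do not settle whether replicate numbers pair the libraries. The block moved the genes called over the whole screen from 3 lower to 9 lower and 1 higher for the difference. Directions reversed in these cases, none of which was called in either setting. For the mutant GTPBP1 change the value was -0.0266 without its sgRNA 3. The mutant GSPT1 change ran from -0.58 to 0.00187 over left-out libraries. The PELO difference was 0.0264 without the most abundant sgRNA, 0.15 with all promoters pooled, 0.0553 without its sgRNA 4, and -1.08 to 0.17 over left-out libraries. The ETF1 difference was -0.19 without its sgRNA 2, -0.0025 without its sgRNA 5, and -0.0488 to 0.0529 over left-out libraries. The cause was not tested. Of the other values, 473 kept direction and side of the threshold, 19 gained and 10 lost a call. A minimum mean count of 100 left PELO with fewer than 3 sgRNAs and gave no value for it. Over all genes, DESeq2 called 696 higher in the wild-type line, 441 in the mutant line and 29 lower and 18 higher for the difference. Genes called higher fell to 74 and 41 with limma and to 83 and 69 with scaling to controls. Leaving out member sgRNAs and adding sets named by a transcript were chosen after seeing the data. Few reads at day 9 limit the lowest PELO and ABCE1 sgRNAs.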
